A study of Mus musculus with 12 samples.

Results

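The transcriptome of mouse bone marrow-derived macrophages 3 d after priming with monophosphoryl lipid A (MPLA) was compared here with that of cells at the end of 24 h of MPLA. Each of these times had been compared with the same untreated controls in a table of its own, and no table set them against each other. Genes were joined by identifier, and a gene was kept when its unscaled log2 ratio of controls to MPLA was finite in both tables. That rule kept 17499 of the 21317 genes listed in both. The 3 d ratio was subtracted from the 24 h ratio, which cancels the controls and gives 3 d over 24 h, and the median over all 17499 genes was then subtracted.

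The RNA-seq series held 12 libraries, 3 in each of 4 groups, and 9 of them stand behind the values below. The macrophages were wild type and were grown from the marrow of male C57BL/6 mice aged 8 to 16 weeks, for 7 d in RPMI medium with 10% serum, an antibiotic-antimycotic mix and the growth factor of the macrophage lineage, M-CSF (macrophage colony-stimulating factor), at 10 ng/mL. M-CSF stayed in every culture to the end, so controls, 24 h cells and 3 d cells all carried it. Controls had no MPLA, 1 group was harvested after 24 h of MPLA, and 1 group was harvested 3 d after MPLA priming had ended. The labels do not give the length of that priming, the dose, the day on which the controls were taken, or whether libraries of a group came from separate mice.

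MPLA is a lipid A derivative that acts through Toll-like receptor 4 (TLR4), which signals through the adaptors MyD88 and TRIF. The first leads to NF-kappa B and the cytokine and chemokine genes, and the second to interferon regulatory factors, type I interferon and, through STAT factors, to interferon-stimulated genes. Feedback inhibitors such as A20 and the SOCS proteins limit both. Macrophages kept in M-CSF divide, and lipopolysaccharide is known to stop that division.

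No p-value exists for 3 d over 24 h, since the tables hold no values per library. A standard error (SE) was recovered for each table from the DESeq2 log2 fold change and p-value, and both were combined as if the tables shared no controls. It is given after a plus-minus sign and belongs to the DESeq2 difference, which for genes with a large SE mostly lies closer to 0 than the unscaled one. Where a p-value was deposited as 0, only an upper limit of the SE could be had, written as "SE at most". The median combined SE was 0.15 over the 14887 genes that had a DESeq2 adjusted p in both tables, called tested below, and the 95th percentile was 1.05. All levels are log2 of MPLA over control centred on the median gene, and all differences are log2 of 3 d over 24 h.

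Depth per library is unknown. A constant offset between the edgeR and the unscaled columns put the 3 d libraries at 2.49 times the depth of the 24 h libraries. The median difference over all genes was 0.28 with the edgeR columns and 0.017 with the DESeq2 columns, so this depth ratio depends on the scaling. Before centring the median gene stood at 1.58, and after centring the median of the tested genes was 0.06. The edgeR columns put the tested genes higher, at a median of 0.33, so the sign of a difference smaller than that depends on the scaling, and such differences are described only relative to the median gene.

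Most genes stood at 3 d within 2-fold of their 24 h level. Of the 17499 genes, 12358 were within 2-fold, 2833 (16.2%) were at least 2-fold higher at 3 d than at 24 h, and 2308 (13.2%) were at least 2-fold lower. Among the tested genes 2480 (16.7%) were higher and 1309 (8.79%) lower, and the DESeq2 difference lay beyond 2 combined SE on the same side for 1858 and 1092 of them. Within 2-fold is not the same as unchanged. Of the 11098 tested genes within 2-fold, 5694 also had a DESeq2 difference beyond 2 combined SE. The 2612 genes that were not tested had no adjusted p in at least 1 table, and 36.1% of them were protein coding, against 83.8% of the tested genes.

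The tested genes were then sorted by their course. At 24 h, 34.2% of the tested genes were called higher and 34.4% lower than the controls at a DESeq2 adjusted p under 0.05 in the authors' deposited table. At 3 d these shares were 29.7% and 25.8% in the authors' deposited table. A gene was taken as changed at 24 h when it was called and at least 2-fold away from the controls, which held for 1958 higher and 2455 lower genes. It was named resolved when it had come back by at least 2-fold to within 2-fold of the controls, and partly resolved when it had come back by at least 2-fold but was still at least 2-fold away.

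Of the 1958 genes higher at 24 h, 534 were resolved (3.59% of the tested genes), 472 partly resolved (3.17%) and 325 persistent (2.18%), meaning within 2-fold of the 24 h level and still called and at least 2-fold away. A further 19 were extended (0.128%), with at least 2-fold more of the same change. Another 5 were reversed (0.0336%), being called and at least 2-fold away on the other side of the controls. Of the 2455 genes lower at 24 h, 1328 were resolved (8.92%), 402 partly resolved (2.70%), 237 persistent (1.59%), 11 extended (0.0739%) and 24 reversed (0.161%). Resolved genes thus made up 27.3% of the rises and 54.1% of the falls, and the plot of course counts shows this difference. The remaining 603 rises and 453 falls met none of these definitions. Late changes, seen at 3 d in genes not changed at 24 h, numbered 122 higher (0.820%) and 64 lower (0.430%).

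**Figure D1:**
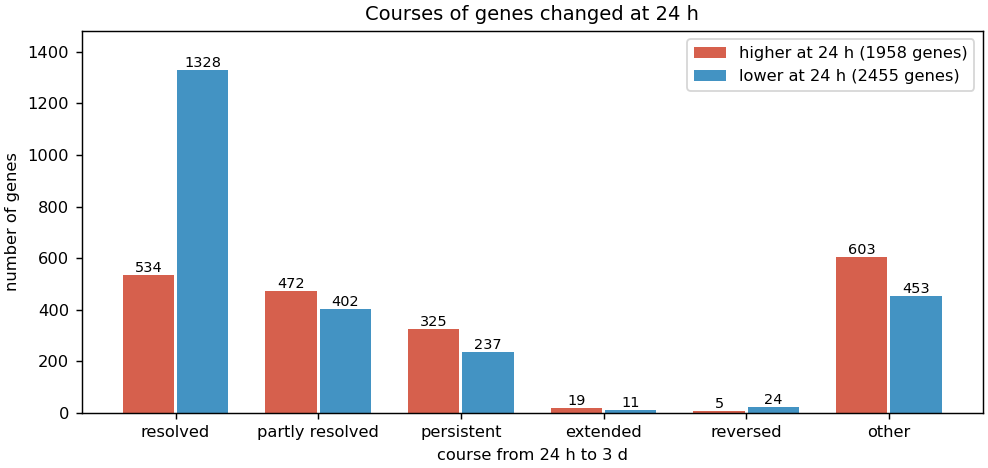
Number of genes in each course from 24 h to 3 d, for genes at least 2-fold higher (red) or lower (blue) than controls at 24 h and called with the DESeq2 adjusted p. Resolved genes number 534 among the rises and 1328 among the falls, and reversed genes 5 and 24.

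A resolved gene need not be back at the control level. Of the 534 resolved rises, 295 were still called different from the controls at 3 d in the authors' deposited table. For the 1328 resolved falls that number was 701. The median level of the resolved rises went from 1.94 at 24 h to 0.36 at 3 d, and that of the partly resolved rises from 4.22 to 1.94. For the falls these medians were -1.99 and -0.29, and -3.74 and -1.45. The 24 h libraries enter both the level at 24 h and the difference, with opposite signs, so no relation between them is given.

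**Figure D2:**
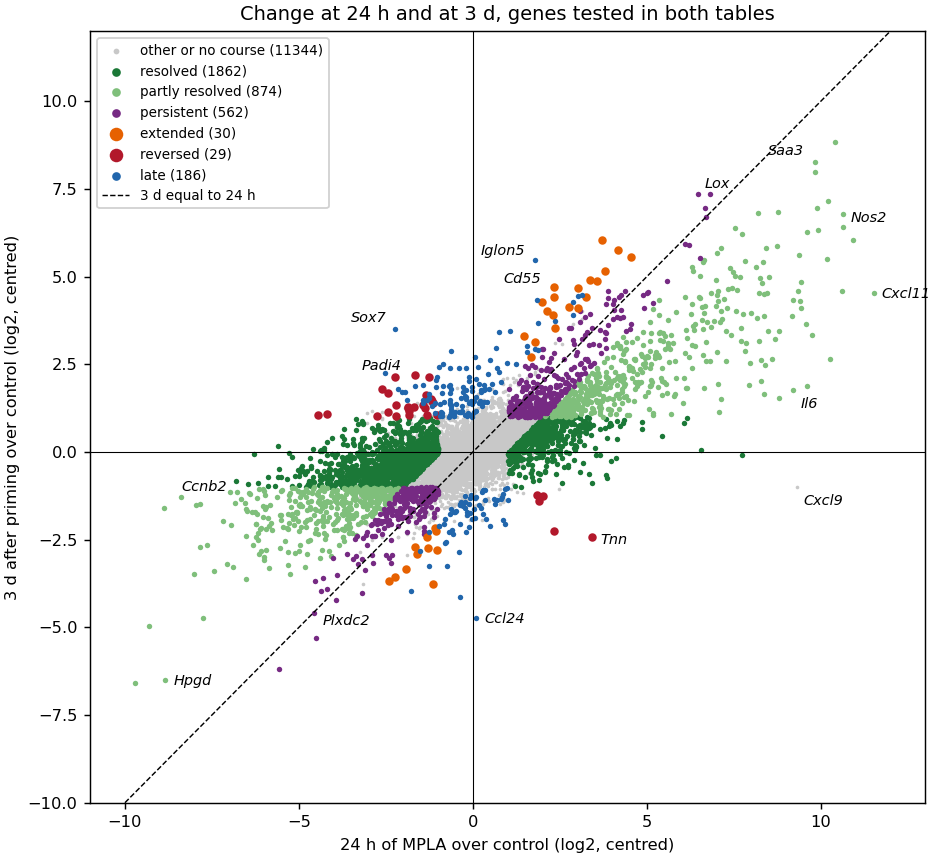
Log2 level over controls at 24 h (x axis) and at 3 d (y axis) of the 14887 tested genes, coloured by course, with the line on which both are equal (dashed). Resolved genes (dark green) lie within 1 of the horizontal zero line, persistent genes (purple) along the dashed line, and Cxcl9 stood at 9.31 and -1.0.

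The genes lowest at 3 d relative to 24 h encoded mainly chemokines, cytokines and other secreted or surface proteins. Cxcl9, a T cell attracting chemokine (ENSMUSG00000029417, chromosome 5, 92321347 to 92328079, GRCm38), stood at 9.31 at 24 h and at -1.0 at 3 d. Its difference was -10.29 ± 0.51, a level 1248-fold lower, and at 3 d it was not called different from the controls (DESeq2 adjusted p = 0.221 in the authors' deposited table). Il12b, which encodes the p40 subunit of interleukins 12 and 23, stood at 10.24 and 0.17, a difference of -10.04 ± 0.68. It had no adjusted p at 3 d, so its level there was not tested against the controls.

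The other genes among the 10 lowest differed by -6.68 to -7.80. They were the serine protease inhibitors Serpina3f (-7.80 ± 0.54) and Serpina3g (-7.69 ± 0.55), the endothelial lipase Lipg (-7.60 ± 0.77), the serotonin transporter Slc6a4 (-7.49 ± 0.84, not tested at 3 d), Il6 (-7.42 ± 0.56), the chemokines Ccl22 (-7.24 ± 0.59) and Cxcl11 (-6.96 ± 0.65), and Shisa3 (-6.68 ± 0.63). Serpina3f was back at -0.09 at 3 d, whereas Cxcl11, which had the highest level of these at 24 h (11.53), was still at 4.54. The deposited gene labels class Cxcl11 as a polymorphic pseudogene, so its RNA level does not show that a chemokine is made. Cxcl11 shares 41.7% of its exon bases with genes on the opposite strand, and Serpina3f and Serpina3g share 10.6% and 15.5% of their 50-base windows with other transcripts, so these values are uncertain.

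The 10 highest differences lay between 5.68 and 7.30, and all but 1 of these genes had been far below the controls at 24 h. Pif1, a DNA helicase (ENSMUSG00000041064, chromosome 9, 65587160 to 65595967, GRCm38), stood at -8.87 at 24 h and -1.60 at 3 d, a difference of 7.30 ± 0.79. Ankle1, an endonuclease (7.11 ± 0.81), the mitotic cyclin Ccnb2 (6.46 ± 0.42) and the spindle protein Aspm (6.38 ± 0.40) followed, and each was still at least 2-fold below the controls. Klhl23 (5.87 ± 0.88) and Rhoj, a small GTPase (5.68 ± 0.67), were partly resolved too, both at -1.13 at 3 d. The fibroblast growth factor receptor Fgfr1 (6.27 ± 0.91), Lrfn4 (6.02 ± 0.75) and Zfp365 (5.79 ± 0.95) were resolved. The transcription factor Sox7 (5.78 ± 1.25) was the exception, with a level of -2.25 at 24 h that was not called and of 3.51 at 3 d. The DESeq2 differences of those with a larger SE were smaller, at 5.85 for Pif1, 5.04 for Fgfr1 and 4.00 for Sox7. Before centring, which took off 3-fold, the ratios of Pif1, Ankle1, Fgfr1, Klhl23, Zfp365 and Sox7 were whole numbers. A total of 1 read at 24 h would give such ratios, so these 24 h levels may lie near the floor and are uncertain.

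Gene lists showed the direction of whole groups. Cytokines had a median difference of -2.93, chemokines of -2.80 and interferon response genes of -1.76, against 0 for all genes. At the other end mitosis genes had a median of 3.32 and DNA replication genes of 0.87. The genes of oxidative phosphorylation, fatty acid oxidation and the TCA cycle stayed near the median gene.

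**Figure D3:**
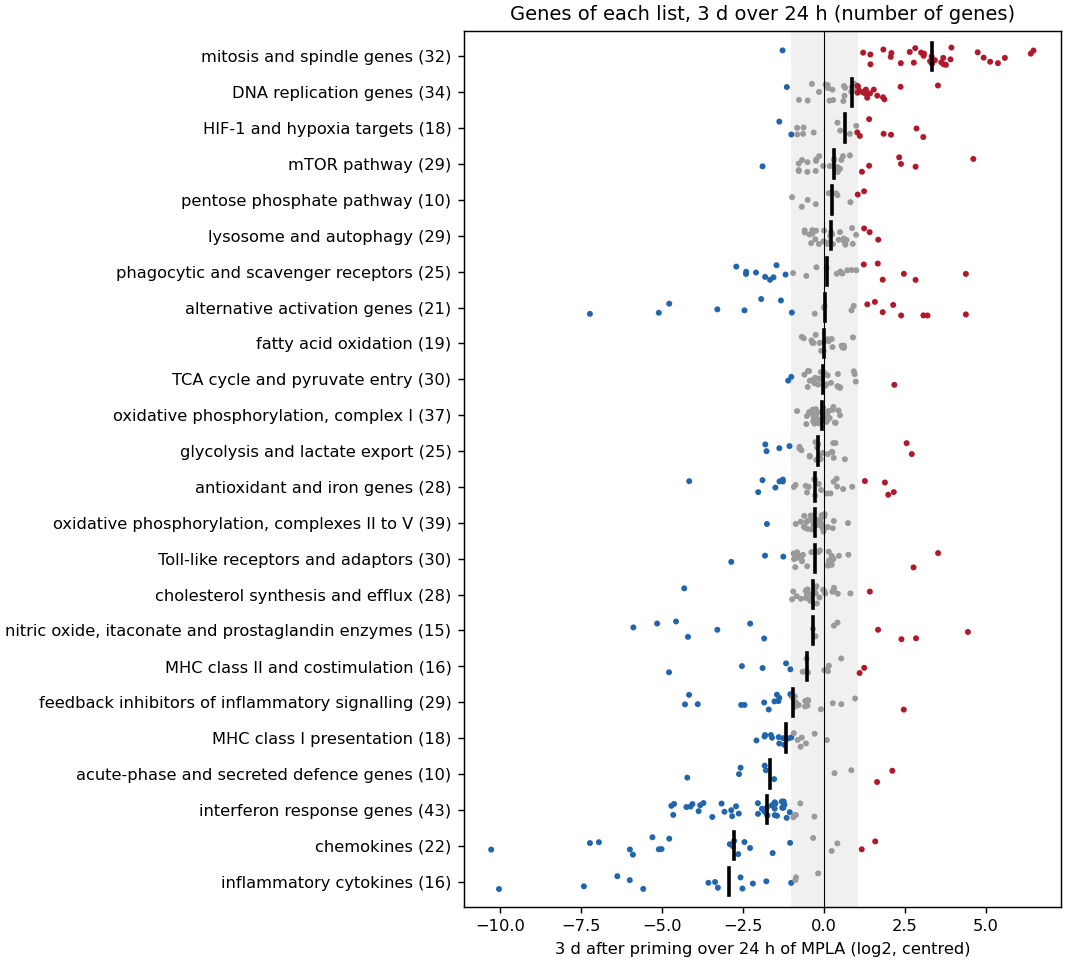
Difference between 3 d and 24 h (log2, x axis) of each gene in 24 lists (rows, with the number of genes). Black bars are medians, the grey band marks less than 2-fold, and red and blue points are at least 2-fold higher and lower, with 31 of 32 mitosis genes to the right of the band and 38 of 43 interferon response genes to its left.

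Inflammatory cytokines were lower at 3 d in 13 of the 16 genes with a value and higher in none, against 13.2% and 16.2% of all genes. Il6, an acute-phase cytokine (ENSMUSG00000025746, chromosome 5, 30013114 to 30019981, GRCm38), stood at 9.22 at 24 h and at 1.77 at 3 d. Il1a stood at 9.75 and 3.34 (difference -6.39, SE at most 0.29) and Il1b at 7.13 and 1.51 (-5.59, SE at most 0.24). Both encode interleukin 1, and each kept an excess over the controls. Tnf, tumour necrosis factor, stood at 5.41 and 2.10, a difference of -3.28 with an SE of at most 0.16.

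Not all cytokines kept such an excess. Il18, an inducer of interferon gamma, stood at 2.32 at 24 h and at -0.23 at 3 d, and Il10, an anti-inflammatory cytokine, at 2.70 and 0.47. Tnfsf15, a TNF family ligand of lymphocytes, was persistent, with 5.17 at 24 h, 4.25 at 3 d and a difference of -0.89 ± 0.26. Ebi3, a subunit of interleukin 27, was persistent too, at 2.35 and 1.45, while its partner Il27 stood at 5.54 and 1.94. Of the 14 tested cytokines, 14 were called higher at 24 h and 11 at 3 d in the authors' deposited table. The shares of all tested genes were 34.2% and 29.7%.

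Chemokines were lower in 17 of 22 genes. The monocyte attractants Ccl2 and Ccl7 stood at 7.94 and 8.22 at 24 h and at 1.91 and 3.17 at 3 d, differences of -6.00 (SE at most 0.23) and -5.02 (SE at most 0.25). Cxcl10, an interferon-induced T cell attractant, stood at 8.41 and 2.48. Ccl5 and Ccl8 retained more. Ccl5 stood at 9.90 at 24 h and at 6.95 at 3 d, and Ccl8 at 7.67 and 4.99, with differences of -2.92 (SE at most 0.32) and -2.65 ± 0.60. The membrane-anchored Cxcl16 was persistent, at 2.23 and 1.86.

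The eosinophil attractant Ccl24 took another course. It stood at 0.08 at 24 h and at -4.73 at 3 d, a difference of -4.79 ± 0.60, and it led the late falls. Its DESeq2 difference, to which the error belongs, was smaller, at -3.21. Ccl6 (1.16 ± 0.06) and Cx3cl1 (1.57 ± 0.34) were the chemokines at least 2-fold higher at 3 d.

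Of 10 secreted defence and acute-phase genes with a value, 6 were lower at 3 d than at 24 h and 2 higher. Yet all 9 tested ones were called higher than the controls at both times in the authors' deposited table. Among all tested genes 34.2% were called higher at 24 h and 29.7% at 3 d. The list's lowest difference was that of Serping1, the C1 inhibitor, at -4.23 ± 1.03, from 5.20 to 0.95, which had no adjusted p at 3 d. Saa3, a serum amyloid A, stood at 9.84 at 24 h and 8.27 at 3 d, and Lcn2, the iron-siderophore binding lipocalin 2, at 9.85 and 7.99. Their differences were -1.55 (SE at most 0.34) and -1.84 ± 0.40. The complement genes C3 (5.83 and 4.01) and Cfb (8.43 and 5.82) followed the same course. All 4 were partly resolved and still at 4.01 or more at 3 d. Cfb shares 73.0% of its windows with other transcripts and is uncertain.

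Slpi and Orm1 were extended. Slpi, which encodes a protease inhibitor, stood at 2.34 at 24 h and 4.42 at 3 d, a difference of 2.10 ± 0.56. The difference of Orm1, an acute-phase glycoprotein, was 1.63 ± 0.75, but its DESeq2 difference was 0.77, and it shares 20.4% of its windows with other transcripts. Haptoglobin (Hp) was persistent, at 1.88 and 2.17.

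Among enzymes that make nitric oxide, itaconate and prostaglandins, 7 of 15 were lower and 4 higher. Nos2, the inducible nitric oxide synthase, stood at 10.64 at 24 h and 6.41 at 3 d, a difference of -4.21 ± 0.42. The arginine transporter Slc7a2 was resolved, from 6.16 to 0.97, while Ass1, which remakes arginine from citrulline, was persistent at 3.80 and 3.43. Irg1 (Acod1), which makes itaconate, stood at 9.44 and 4.84, a difference of -4.58 with an SE of at most 0.28. Arginase 1 (Arg1) stood at 2.50 and -0.83 and was not tested at 3 d. Ass1 shares 38.6% of its windows with other transcripts.

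Prostaglandin genes moved apart. Ptgs2, the inducible cyclooxygenase, stood at 9.58 at 24 h and 3.66 at 3 d, a difference of -5.89 (SE at most 0.32), and the prostaglandin E synthase Ptges at 6.85 and 4.54. Ptgs1, the constitutive cyclooxygenase, stood at -4.94 and -2.13, a difference of 2.84 ± 0.15. Hpgd, which breaks prostaglandins down, had one of the lowest levels of all listed genes at 24 h (-8.86) and was still at -6.50 at 3 d. Alox5, the first enzyme of leukotriene synthesis, was reversed. Its level was -2.61 at 24 h and 1.80 at 3 d, a difference of 4.44 ± 0.86. The DESeq2 difference was 3.93. Before centring its ratio was a whole number, as a total of 1 read at 24 h would give, so its 24 h level may lie near the floor.

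**Figure D4:**
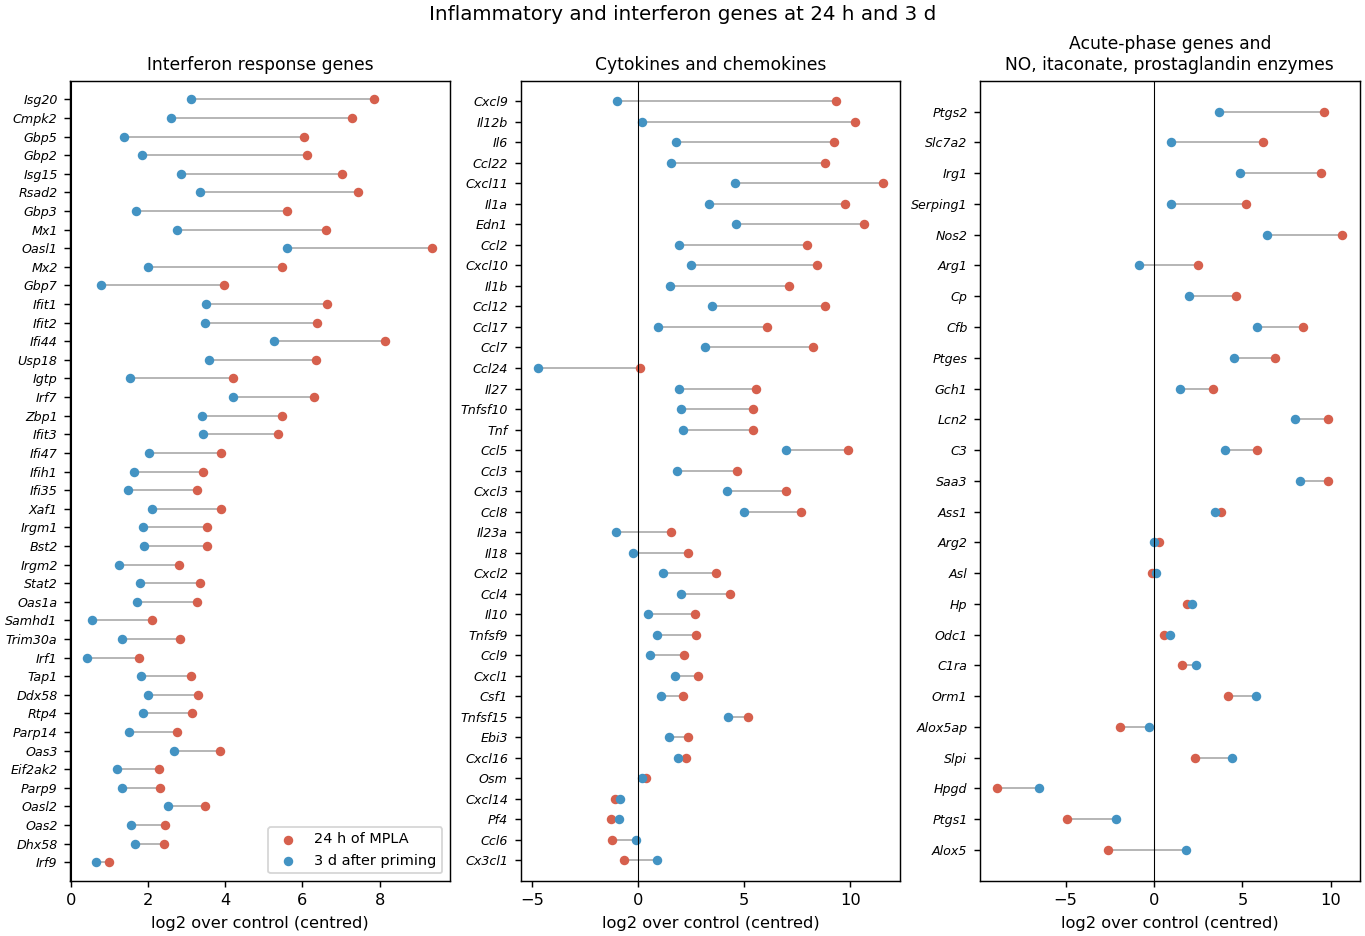
Log2 level over controls at 24 h (red) and at 3 d (blue) of interferon response genes (left), cytokines and chemokines (middle) and acute-phase genes with enzymes of nitric oxide, itaconate and prostaglandin synthesis (right), each panel with its own x axis. All interferon response genes drawn lie at a lower level at 3 d than at 24 h and above the controls at both times.

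All 43 interferon response genes were lower at 3 d than at 24 h, 38 of them at least 2-fold. All 43 were called higher than the controls at both times in the authors' deposited table. Among all tested genes 34.2% were called higher at 24 h and 29.7% at 3 d. The list's median level was 3.87 at 24 h and 1.89 at 3 d. By course 35 of the 43 were partly resolved, 4 persistent and 3 resolved. The largest differences were those of Isg20, an antiviral exonuclease, Cmpk2, a nucleotide kinase, and the guanylate-binding proteins Gbp5 and Gbp2, at -4.72, -4.66, -4.64 and -4.26, each with an SE of at most 0.27. Isg15, a ubiquitin-like modifier (ENSMUSG00000035692, chromosome 4, 156199424 to 156200818, GRCm38), stood at 7.02 at 24 h and 2.86 at 3 d.

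Only 5 interferon response genes stayed within 2-fold. Irf9, part of the ISGF3 factor, stood at 1.00 at 24 h and 0.67 at 3 d, a difference of -0.30 ± 0.06 that is within the shift between scalings and was -0.030 with the edgeR columns. Dhx58 (-0.74 ± 0.11), Oas2 (-0.88 ± 0.16), Oasl2 (-0.93 ± 0.24) and Parp9 (-0.95, SE at most 0.07), 4 genes of RNA sensing and antiviral defence, were persistent. Irf7, the interferon-inducible regulatory factor, was still at 4.22 at 3 d after 6.29 at 24 h, and Oasl1 and Ifi44 were the list's highest at 3 d, at 5.61 and 5.26. Gbp7, Samhd1 and Irf1 were resolved, with 0.78, 0.56 and 0.44 at 3 d. The edgeR columns moved the list's median to -1.48.

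Many interferon-stimulated genes are known to carry the interferon-stimulated response element, the site that ISGF3 and other interferon regulatory factors bind. The core searched was GAAA, any 2 bases and GAAA, on both strands, in RefSeq windows of 250 bases before to 50 after a gene's start (GRCm38.p6). Windows were found for 33 of the 43 genes, and 20 of their 40 windows held the core, against 3.44% of all 32851 windows. By course, 17.0% of the windows of partly resolved rises held it, against 5.92% for resolved and 5.60% for persistent rises. Within the list the 19 genes with the core had a median difference of -1.78, and the 14 without it -1.80. A match is a run of letters and not a shown site. The 250 bases before the start are printed for Gbp5 (chr3:142496684-142496933, plus strand), Gbp2 (chr3:142620413-142620662, plus strand) and Isg15 (chr4:156200819-156201068, minus strand), which are the 3 genes with the largest difference among those with 1 window and the core before the start. Capitals mark the core on either strand, and in Isg15 3 overlapping matches form 1 run.
Gbp5: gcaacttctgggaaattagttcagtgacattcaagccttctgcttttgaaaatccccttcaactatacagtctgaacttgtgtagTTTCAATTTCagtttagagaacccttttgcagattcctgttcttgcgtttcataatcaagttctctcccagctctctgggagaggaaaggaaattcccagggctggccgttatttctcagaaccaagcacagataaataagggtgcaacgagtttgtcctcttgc
Gbp2: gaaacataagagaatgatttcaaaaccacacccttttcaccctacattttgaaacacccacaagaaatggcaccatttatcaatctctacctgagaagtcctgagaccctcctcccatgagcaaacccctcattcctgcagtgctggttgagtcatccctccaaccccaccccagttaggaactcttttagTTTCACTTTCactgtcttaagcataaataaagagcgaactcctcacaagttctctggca
Isg15: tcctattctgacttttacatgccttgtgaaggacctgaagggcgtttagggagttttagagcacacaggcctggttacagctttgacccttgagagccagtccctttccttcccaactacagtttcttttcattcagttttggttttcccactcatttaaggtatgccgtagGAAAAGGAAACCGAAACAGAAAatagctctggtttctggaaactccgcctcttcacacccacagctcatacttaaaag

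Feedback inhibitors of TLR4 and cytokine signalling were lower in 13 of 29 genes and higher in 1, against 13.2% and 16.2% of all genes. All 29 were tested, with 23 called higher than the controls at 24 h and 22 at 3 d in the authors' deposited table. Of all tested genes, 34.2% were called higher at 24 h and 29.7% at 3 d. Socs3, which blocks interleukin 6 receptor signalling, stood at 6.16 at 24 h and 1.83 at 3 d, a difference of -4.30 (SE at most 0.19). Il1rn, the interleukin 1 receptor antagonist, and Socs1 had differences of -4.17 (SE at most 0.19) and -3.91 ± 0.36. Nfkbia and Tnfaip3, which encode the NF-kappa B inhibitors I kappa B alpha and A20, were partly resolved at 1.27 and 1.81.

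Several inhibitors were persistent. Irak3, a kinase-dead inhibitor of the MyD88 pathway, stood at 3.05 at 24 h and 2.07 at 3 d. The MAP kinase phosphatase Dusp1 stood at 1.97 and 1.84, and Dusp4 at 2.01 and 2.93, differences of -0.10 ± 0.09 and 0.95 ± 0.13. Sigirr, an inhibitory receptor of the interleukin 1 family, was back at -0.14 after -2.57.

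Toll-like receptors and their adaptors were within 2-fold in 25 of 30 genes. Tlr4 itself stood at -0.33 at 24 h and -0.13 at 3 d, and Myd88 at 1.10 and 0.38. Tlr1 (-2.87, SE at most 0.10), Tlr3 (-1.83, SE at most 0.10) and Tlr6 (-1.26 ± 0.08) were lower at 3 d. Tlr1 and Tlr6 share 15.4% and 12.3% of their windows with other transcripts. Tlr2 and the coreceptor Cd14 were persistent, at 1.45 and 1.22 at 3 d. Tlr5, the flagellin receptor, went from -5.01 to -1.52, a difference of 3.52 ± 0.77, and Lbp, the lipopolysaccharide-binding protein, from -0.84 to 1.89.

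Genes of class I antigen presentation were lower in 11 of 18. The proteasome activator genes Psme2 and Psme1 and the peptide editor Tapbpl led, at -2.09, -1.84 and -1.83 with an SE of at most 0.09 each, and Psmb8, an immunoproteasome subunit, followed at -1.65. H2-K1, H2-D1 and B2m, which encode class I chains, were persistent, with H2-K1 at 2.44 and 2.12, H2-D1 at 1.35 and 1.41 and B2m at 2.00 and 1.41. The nonclassical chain H2-T23 was partly resolved instead, at 2.48 and 1.44, a difference of -1.02 close to that of the immunoproteasome subunit Psmb9 (-1.11). The edgeR columns moved the median of the list from -1.17 to -0.91, and centring on the tested genes moved it to -1.23.

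In the list of class II and costimulatory genes 5 of 16 were lower at 3 d and 2 higher. The class II transactivator Ciita stood at 2.23 at 24 h and 2.32 at 3 d, and H2-Aa and H2-Eb1 at 3.23 and 3.11 at 24 h and 2.65 and 2.55 at 3 d. H2-Ab1 and the invariant chain Cd74 had differences of -1.18 and -1.05. Cd40, which receives help from T cells, stood at 6.64 and 1.82, a difference of -4.79 (SE at most 0.21). Cd86 was resolved from 2.82 to 0.25 and Icosl from 2.29 to 0.36. Cd80, the other CD28 ligand, stood at 0.47 and 0.54.

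Phagocytic and scavenger receptors were split, with 9 of 25 lower and 6 higher at 3 d than at 24 h. The mannose receptor Mrc1 stood at -5.63 at 24 h and -1.28 at 3 d, a difference of 4.37 (SE at most 0.16). The phosphatidylserine receptor Havcr2 (2.82 ± 0.10) and the lipid receptor Trem2 (2.46, SE at most 0.08) were back within 2-fold of the controls, and Cd163, the haemoglobin scavenger receptor, was not, at -3.47 after -5.25. Of the receptors for antibodies, Fcgr1 went from 3.75 to 1.01 and the inhibitory Fcgr2b from 1.99 to -0.15. The formyl peptide receptors stayed high, with Fpr1 at 7.72 and 6.23 and Fpr2 at 7.04 and 4.59, as did the scavenger receptor Marco at 4.51 and 3.52. Itgax, the CD11c integrin, was late lower at -2.28 after -0.69. Fpr2 shares 31.5% of its windows with other transcripts.

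Genes of interleukin 4 driven activation had no common direction, with 8 of 21 higher, 8 lower and a median of 0.01. The bridging ligand Gas6 (3.19, SE at most 0.12), the lectin Clec10a (3.06 ± 0.29), the lipid-sensing receptor Pparg (2.38 ± 0.14) and Igf1 (2.13, SE at most 0.09) were higher at 3 d than at 24 h, and all were still below the controls. Irf4 and Egr2, transcription factors of this program, stood at -2.01 and -2.83 at 3 d. Those that were lower at 3 d had mostly been induced at 24 h, among them Ccl22, Ccl17 (-5.11 ± 0.97, not tested at 3 d) and Klf4 (-1.34 ± 0.24).

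Mitosis and spindle genes were at least 2-fold higher at 3 d in 31 of 32, against 16.2% of all genes. At 24 h 31 of 32 were called lower than the controls in the authors' deposited table, against 34.4% of all tested genes. The list median was -4.13. At 3 d all 32 were still called lower in the authors' deposited table, against 25.8%, but the list median was -0.81. The difference was at least 2-fold in 31 genes, beyond 2 combined SE in each of them, and reached 6.46 ± 0.42 in Ccnb2 (ENSMUSG00000032218, chromosome 9, 70407692 to 70421547, GRCm38), which stood at -7.96 at 24 h and -1.52 at 3 d. By course 21 of the 32 were resolved and 10 partly resolved.

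Kinases, cyclins and ubiquitin ligase partners shared this course. Plk1, a kinase of mitotic entry, stood at -6.46 at 24 h and -0.91 at 3 d, a difference of 5.58 ± 0.32. Cenpf (5.36 ± 0.29), Cdc20 (5.12 ± 0.34) and Ube2c (4.92 ± 0.27), of which Cdc20 and Ube2c act with the anaphase-promoting complex, were close to it. Cdk1 itself had the smallest positive difference, 1.20 ± 0.10, from -1.87 to -0.69, and Mki67 followed with 1.43. Cenpa, the centromeric histone, was the list's lowest at 3 d, at -2.66. The spindle assembly factor Tpx2 ran against the list, at 0.74 at 24 h and -0.58 at 3 d, a difference of -1.29 ± 0.09.

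**Figure D5:**
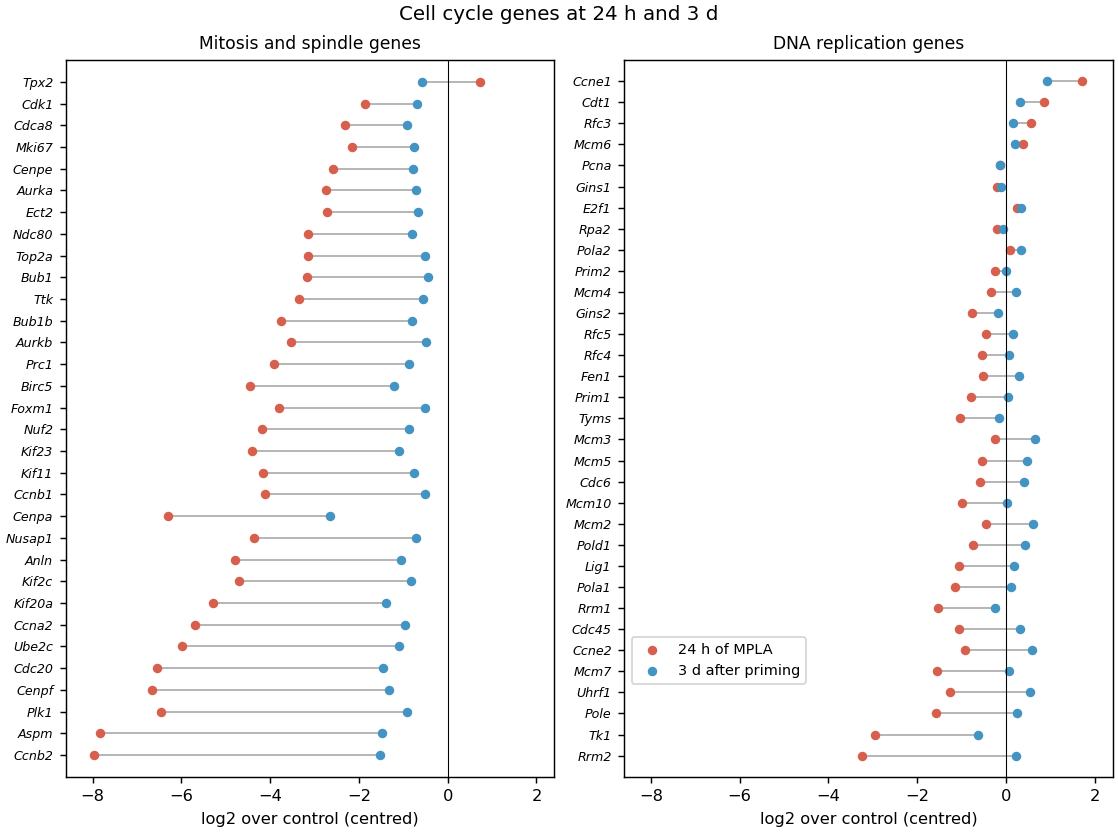
Log2 level over controls at 24 h (red) and at 3 d (blue) of 32 mitosis and spindle genes (left) and of DNA replication genes (right). All mitosis genes but Tpx2 lie further right at 3 d, by up to 6.46 for Ccnb2, while replication genes moved less and mostly ended near 0.

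DNA replication genes moved the same way by less, with 15 of 34 higher, 1 lower and a median of 0.87. Their median level was -0.54 at 24 h and 0.19 at 3 d. At 3 d 16 of the 34 were called above the controls in the authors' deposited table, against 29.7% of all tested genes. The ribonucleotide reductase subunit Rrm2 led, at -3.25 at 24 h and 0.23 at 3 d, a difference of 3.51 ± 0.15. Thymidine kinase Tk1 (2.36 ± 0.14), the polymerase Pole (1.86 ± 0.17) and Uhrf1 (1.82 ± 0.13) followed. The sliding clamp Pcna differed by 0.04 ± 0.07. Uhrf1 and Pcna share 15.4% and 19.1% of their windows with other transcripts. In a bulk culture fewer dividing cells and less RNA per cell cannot be told apart.

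Promoters of genes of late cell cycle are known to hold the cell cycle homology region TTTGAA, bound by the DREAM and B-MYB complexes, and CCAAT boxes, bound by NF-Y. Windows were found for 28 of the 32 mitosis genes. TTTGAA on either strand lay in 23 of their 30 windows, against 17.9% of all windows, and CCAAT in 24 of 30, against 37.4%. Of the 32 windows of replication genes 3 held TTTGAA and 17 held CCAAT. The 21 mitosis genes with TTTGAA had a median difference of 3.34 and the 7 without it 3.27, so the letters did not separate the list. Across resolved falls of any kind TTTGAA lay in 15.1% of windows, which is below the 17.9% of all windows and above the 12.5% of windows of all genes with a value. The 250 bases before the start are printed for Ccnb2 (chr9:70421555-70421804, minus strand), Cdc20 (chr4:118437344-118437593, minus strand) and Ube2c (chr2:164769679-164769928, plus strand), which have the largest differences among those with 1 window and both motifs before the start. Capitals mark TTTGAA and CCAAT on either strand. TTTGAA begins 167 bases before the start in Ccnb2, 18 in Cdc20 and 29, on the other strand, in Ube2c, and overlapping CCAAT matches form 1 run in Ube2c.
Ccnb2: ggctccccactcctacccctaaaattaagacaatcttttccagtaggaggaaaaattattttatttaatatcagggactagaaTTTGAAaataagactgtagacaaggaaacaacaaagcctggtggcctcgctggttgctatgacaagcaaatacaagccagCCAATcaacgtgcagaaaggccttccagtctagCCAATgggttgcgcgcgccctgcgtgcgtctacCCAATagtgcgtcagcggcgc
Cdc20: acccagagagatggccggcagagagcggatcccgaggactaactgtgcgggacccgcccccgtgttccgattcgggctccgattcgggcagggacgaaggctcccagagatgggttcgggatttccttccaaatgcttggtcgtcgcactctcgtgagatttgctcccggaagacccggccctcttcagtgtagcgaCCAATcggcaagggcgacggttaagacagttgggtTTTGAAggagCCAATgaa
Ube2c: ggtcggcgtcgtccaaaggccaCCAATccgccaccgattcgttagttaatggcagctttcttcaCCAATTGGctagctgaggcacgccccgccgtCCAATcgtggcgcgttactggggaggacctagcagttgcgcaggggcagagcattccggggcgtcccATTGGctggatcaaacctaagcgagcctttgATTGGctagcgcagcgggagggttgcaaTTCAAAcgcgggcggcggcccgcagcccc

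Mitochondrial energy genes stayed within a narrow range. None of the 37 complex I genes differed by 2-fold, with extremes of -0.84 ± 0.10 for Ndufs4 and 0.49 ± 0.08 for Ndufb11. In complexes II to V, cytochrome c (Cycs) was the 1 gene of 39 past 2-fold, at 3.20 at 24 h and 1.40 at 3 d, and it shares 25.9% of its windows with other transcripts. None of the 19 fatty acid oxidation genes passed 2-fold. In the TCA cycle and pyruvate entry list the malic enzyme Me1 (-1.11 ± 0.17) and Pdk3 (-1.02 ± 0.14) were lower and Pdk2, a brake on pyruvate dehydrogenase, was higher at 2.17 ± 0.16. Medians of these 4 lists lay between -0.28 and 0.00, and with the edgeR columns between -0.01 and 0.27.

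Glycolysis genes were within 2-fold in 19 of 25, near the 70.6% of all genes. The glucose transporters Slc2a6 and Slc2a1 and the hexokinases Hk3 and Hk2 were lower at 3 d, by differences of -1.82, -1.39, -1.78 and -1.07, and all but Slc2a6 were resolved. Pfkfb3, which makes the activator of phosphofructokinase, and the lactate exporter Slc16a3 were persistent, at 2.22 and 1.18 at 3 d. The isoenzymes Ldhb (2.54 ± 0.21) and Aldoc (2.70 ± 0.14), lowered at 24 h, were back at -0.19 and -0.23. In the pentose phosphate pathway Shpk and Prps2 were the 2 of 10 genes past 2-fold, at 1.04 ± 0.20 and 1.23 ± 0.08.

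Of 18 HIF-1 and hypoxia targets 7 were higher and 2 lower. Epas1, which encodes HIF-2 alpha (3.06 ± 0.36), Ndrg1 (2.85, SE at most 0.12), Mxi1 (2.06 ± 0.13) and the angiogenic factor Vegfa (1.83 ± 0.09) had been below the controls at 24 h. Hif1a itself stood at 1.08 and 0.73.

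In lipid handling, 26 of 28 cholesterol genes were within 2-fold. Ch25h, which makes 25-hydroxycholesterol, stood at 8.16 at 24 h and 3.81 at 3 d, a difference of -4.32 ± 0.69. Apoe was back at -0.53 after -1.91. The oxysterol receptor LXR alpha (Nr1h3) was persistent, at 3.35 and 3.05, while its target Abca1 stood at -0.05 and 0.34.

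Lysosomal genes were within 2-fold in 26 of 29, and the acid lipase Lipa (1.67, SE at most 0.05), the autophagy kinase Ulk1 (1.40 ± 0.08) and Hexa (1.23, SE at most 0.05) were higher. In the mTOR pathway 6 of 29 genes were higher, near the 16.2% of all genes, and they included the inhibitors Ddit4l (4.60 ± 0.99), Sesn1 (2.82, SE at most 0.12) and Deptor (2.37 ± 0.14) and the amino acid sensor component Rragd (2.31 ± 0.09). The ratio of Ddit4l before centring was a whole number, like that of Alox5, so its 24 h level may lie near the floor. The DESeq2 log2 values of Ddit4l over control were -4.19 at 24 h and -0.67 at 3 d. The leucine transporter Slc7a5 was lower, at -1.90 ± 0.18. The kinase Mtor differed by -0.25 ± 0.08.

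Of 28 antioxidant and iron genes 7 were lower and 4 higher, against 13.2% and 16.2% of all genes. Sod2, the mitochondrial superoxide dismutase, stood at 4.48 and 2.42, the cystine transporter Slc7a11 at 5.09 and 3.16, and ferritin heavy chain Fth1 at 2.77 and 1.24. The iron exporter Slc40a1 stood at -4.45 and -2.33, the transferrin receptor Tfrc at -0.94 and 0.91, and Nfe2l2, which encodes NRF2, at -0.29 and 0.93. Hepcidin (Hamp), the ligand that removes the exporter, went from 3.14 to -1.05 but was not tested at 3 d, and its DESeq2 difference was -1.99 ± 1.20. Ferritin light chain Ftl1 stood at -0.18 and -0.13, and the metal transporter Slc11a1 at 1.51 and 1.18. Sod2 shares 21% of its windows with other transcripts.

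The 5 named persistent rises with the highest 24 h levels included surface and matrix proteins. Ly6i stood at 6.71 at 24 h and 6.69 at 3 d, Ly75 (the DEC-205 receptor) at 6.67 and 6.95, podoplanin (Pdpn) at 6.52 and 5.53, the lysyl oxidase Lox at 6.47 and 7.37, and Tnfaip8l3 at 6.20 and 5.90. The DESeq2 differences of Ly6i (-1.18 ± 0.71) and Tnfaip8l3 (-1.98 ± 1.02) lay lower than the unscaled 0.01 and -0.27, so their persistence depends on the scale. Of the persistent falls, Baiap2l2 stood at -5.58 and -6.19, Plxdc2 at -4.58 and -4.58, the receptor partner Ramp1 at -4.54 and -3.68, Myh15 at -4.50 and -5.30, and Atp6v0d2, an osteoclast proton pump subunit, at -4.37 and -3.95.

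Extended changes were few. The complement regulator Cd55 stood at 2.33 at 24 h and 4.71 at 3 d, a difference of 2.41 ± 0.23, and the lipoprotein-associated phospholipase Pla2g7 at 1.99 and 4.28 (2.31, SE at most 0.17). C1s1 was placed here by its unscaled difference of 2.35, but its DESeq2 difference was 0.58 ± 1.20, and it shares 21.8% of its windows with other transcripts. Among the extended falls were Serpinb1a, a neutrophil elastase inhibitor (-2.60 ± 0.32), the VEGF receptor Flt1 (-1.75 ± 0.25) and Siglecf (-1.43 ± 0.56).

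The resolved genes with the largest differences were of several kinds. After a rise they were Serpina3f, the adaptor Scimp (6.56 and 0.05), the carbonic anhydrase Car2 (6.08 and 0.82), Slc7a2 and the receptor Klrk1 (5.43 and 0.46). After a fall they were Fgfr1, Lrfn4, Zfp365, Plk1 and Rasgef1a (-6.18 and -0.88). The chemokine receptor Cxcr4, chosen after its values were seen, stood at -5.29 and -0.02.

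Of the 29 genes named reversed, 24 were former falls. Genes that crossed the control level without being both called and at least 2-fold past it at 3 d are not among them. Krba1 (5.53 ± 1.05), the kinase Srpk3 (5.30 ± 0.58), Alox5, the cell cycle inhibitor Cdkn1c (4.41 ± 0.46) and the histone-citrullinating enzyme Padi4 (3.87 ± 0.62) were lower than the controls at 24 h and higher at 3 d. Padi4 stood at -1.65 and 2.20, and Cdkn1c at -2.24 and 2.15. The ratio of Krba1 before centring was a whole number, like that of Alox5, so the 24 h levels of both may lie near the floor. The named genes that went the other way were Tnn, which encodes tenascin N (3.42 and -2.42), the prohormone convertase Pcsk1 (2.34 and -2.25), the differentiation inhibitor Id1 (1.91 and -1.39) and the amino acid oxidase Il4i1 (2.01 and -1.25). Il4i1 has 85.9% and Cdkn1c 30.7% of its exon bases on the strand opposite to another gene's exons, and both are uncertain.

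The late higher genes named had errors between 0.94 and 1.25. Behind Sox7 the late higher genes were Rsph1 (3.97 ± 1.11), the plakophilin Pkp3 (3.76 ± 1.02), Iglon5 (3.71 ± 0.94) and Hist1h4k (3.68 ± 1.03). Hist1h4k shares 71.5% of its windows with other transcripts. The ratio of Rsph1 before centring was a whole number, like that of Sox7, so the 24 h level of Rsph1 may lie near the floor. Of the late higher genes named Iglon5 reached the highest level, 5.47 at 3 d. The DESeq2 differences, to which the errors belong, were smaller, at 3.10 for Rsph1, 2.99 for Pkp3, 2.75 for Iglon5 and 2.81 for Hist1h4k. The late lower genes behind Ccl24 were Map2 (-3.75), the flippase Atp8a2 (-2.95 ± 0.50), nestin (Nes, -2.77 ± 0.17) and the channel Trpc4 (-2.58 ± 0.78). The DESeq2 differences of Map2 and Trpc4 were -1.36 ± 0.92 and -1.67 ± 0.78, so their sizes depend on the scale. Those of Atp8a2 and Nes were -2.64 and -2.72.

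Genes at 0 in a group could not enter. The rule left out 3818 genes of the join, namely 838 listed at 0 in the controls, 1785 listed at 0 at 24 h only, 249 at 3 d only and 946 at both times. Depth differed between these groups. The edgeR offset put the 24 h libraries at 0.93 and the 3 d libraries at 2.32 times the depth of the controls. The part of depth in these counts was not tested. Csf2, Csf3, Il12a, Saa1 and Saa2 were listed at 0 in the controls and called higher at 24 h, and none of them had an adjusted p at 3 d in the authors' deposited table. The platelet chemokine Ppbp and the mast cell protease Cpa3 were listed at 0 at 24 h and not at 3 d.

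Markers of other cell types were checked beside these values. Macrophage markers had a value in 12 of 13 genes. Adgre1 (F4/80) stood at 2.19 at 24 h and 1.20 at 3 d, the M-CSF receptor Csf1r at -1.48 and -0.50, and Cd68 at -0.61 and 0.19. Only 5 of 13 neutrophil, 5 of 12 B cell, 2 of 12 T and NK cell, 2 of 9 mast cell and 3 of 9 erythroid markers had a value in both tables, as did 6 of 10 dendritic cell and 8 of 9 osteoclast markers. Of the neutrophil markers S100a9 was listed at 0 in the controls and Elane, Ltf, Ngp and Cxcr2 at 24 h, and Cd3d and Cd2 of the T cell markers were listed at 0 in the controls and at 24 h, respectively. Ighm, the immunoglobulin M heavy chain, stood at -9.72 at 24 h and -6.59 at 3 d, and this was the lowest level among the markers. Of the 5 B cell markers with a value, 4 were at least 2-fold higher at 3 d than at 24 h and 1 lower, and 2 were tested. Cd79b was called lower than the controls at 24 h and higher at 3 d, with DESeq2 log2 values of -1.54 and 0.47. The stem and mast cell receptor Kit stood at -4.56 and -0.85, and Hdc, the histidine decarboxylase of mast cells and activated macrophages, at 8.68 and 3.21. Fibroblast and stroma markers had a value in 7 of 12, and 6 were tested. Of these 6, 3 were called higher at 24 h and 2 at 3 d in the authors' deposited table. The shares of all tested genes were 34.2% and 29.7%. Pecam1, an endothelial adhesion molecule, stood at 3.04 and 1.98 and was called at both times, Cdh5 and the pericyte receptor Pdgfrb were called at 24 h, and Col1a1 stood at -2.90 and 1.16 (difference 4.09 ± 1.23) and was not called at either time. The ratio of Col1a1 before centring was a whole number, like that of Alox5, so its 24 h level may lie near the floor. The part of other cells in the differences above was not tested.

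Some further named genes are uncertain because reads of a second gene could be counted with theirs. Overlap of exon bases with exons of the opposite strand was 23.4% in Ebi3, 22.8% in Ube2c, 18.3% in Cxcl16, 18.4% in C1s1, 15.1% in Csf1r, 14.7% in Psmb8 and 14.1% in Atp8a2. It lay between 10.1% (Il27) and 12.9% (Ndufb11) in Il27, Il1a, Pla2g7, Myd88, Ch25h, Hexa and Ndufb11, and was 26.5% in Ftl1. The share of windows found in other transcripts was 50.9% in Ftl1, 28.3% in Psme2, 22.9% in Me1, 21% in Ldhb, 16.6% in Hamp, 13.6% in H2-T23, 12.8% in H2-D1, 12.7% in Gbp7 and 10.4% in Cdc20.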

How the data were processed

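RNA-seq libraries were made with a stranded poly(A) kit, per the labels' protocols, and bcl2fastq, TopHat2, HTSeq, edgeR, DESeq and DESeq2 were used by the authors on mm10, per the submitters' processing notes. Their versions, the annotation and whether counting used strand are not given in the sources used here. The authors deposited log2 fold changes of control over MPLA (unscaled, DESeq2 and edgeR) and p-values with adjusted p-values for each time against the controls, 3 libraries a group, and counts per library were not used here. Where nothing says that libraries of a group came from separate cultures, these p-values measure the spread between libraries only. The 24 h and 3 d tables were joined by gene identifier with pandas 2.3.3 under Python 3.11.15, their signs were turned to MPLA over control, and each log2 value was centred on its median over the 17499 genes. Calls are the authors' deposited DESeq2 adjusted p under 0.05, which the tables list per comparison. The standard error per table is the authors' deposited DESeq2 log2 fold change divided by the normal quantile of its p-value. On simulated data this step only inverted the formula that had made the p-values, so its result was fixed. Whether the deposited p-values follow that formula, and how well the combined error matches the spread of the differences, was not tested. Named genes are the 3 or 5 with the largest difference (for persistent courses the largest 24 h level) in each course, the 10 highest and 10 lowest, up to 4 at each end of a list, and members a group is known for. Members and lists were chosen with earlier results of these data known. Alternatives were the authors' deposited DESeq2 and edgeR columns, other centring, other call thresholds and tested genes only. Positions are from GENCODE M21 on GRCm38, and a gene is called uncertain where at least 10% of its exon bases overlap exons of the opposite strand or at least 10% of its 50-base windows occur in another gene. A few list members count in the totals but are not reported by name here or drawn in the plots of single genes.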

Additional observations from a re-analysis of the deposited data

How the results depend on the processing

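The counts of genes at least 2-fold higher or lower were recomputed with the deposited DESeq2 and edgeR columns, after centring on the tested genes, and over tested genes alone. Genes at least 2-fold lower went from 2308 to 1309 when only tested genes were kept. The untested genes leaned to that side, with 999 at least 2-fold lower and 353 at least 2-fold higher. With the DESeq2 columns extended rises numbered 7 and extended falls 7, against 19 and 11. With the edgeR columns, which shift the median gene upwards by 0.28, resolved rises numbered 340 against 534, and extended rises 31. At an adjusted p under 0.01 there were 2 reversed rises in place of 5, and with the edgeR adjusted p 41 reversed falls in place of 24. For the changes with the DESeq2 columns and with the other calls the cause was not tested. All other course counts stayed within 1.5 times under each alternative, except the unnamed remainder with the edgeR columns (289 rises and 891 falls, against 603 and 453). Similar counts can hide changed members. With the edgeR columns 303 of 534 resolved rises, 212 of 325 persistent rises and 1216 of 1328 resolved falls kept their course. Of the 302 listed or named genes past 2-fold, 291 stayed past it on the same side with the DESeq2 columns, 276 with the edgeR columns and 295 after centring on the tested genes, and 0 changed sign. Of all 680 listed or named genes, 126 stayed within 1 combined SE with the edgeR columns, and 554 moved further or had no SE. The printed errors do not cover the choice of scaling. No paired analysis was possible because the tables carry no values per library, and for the same reason leaving out a replicate was not run. Depth per library is unknown, so precision is given by the recovered errors alone.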

Other observations

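The rule could not place genes that were listed at 0 in one group, and some of them bear on the same pathways. Controls without a read but with reads at both MPLA times were found for 838 genes, of which 132 were called different at 24 h and 26 at 3 d by DESeq2 in the authors' deposited table, 24 of them at both times. Dcn, which encodes the matrix proteoglycan decorin, was called at both, with DESeq2 log2 values over control of 6.86 at 24 h and 4.70 at 3 d in the authors' deposited table. Csf3, the granulocyte growth factor, was called at 24 h in the authors' deposited table (DESeq2 log2 8.23, adjusted p 4.51e-20), and Ccr7, a receptor for migration to lymph nodes, had 6.77 there. Neither had an adjusted p at 3 d. Of the 1785 genes listed at 0 at 24 h only, 165 were called at 24 h and 54 at 3 d. Over all tested genes 34.2% were called higher and 34.4% lower at 24 h, and 29.7% and 25.8% at 3 d. Some genes listed at 0 had no adjusted p, so their counts are not shares of tested genes.

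Genes of bone resorption, which share the M-CSF dependent lineage, were listed as osteoclast markers, and 8 of 9 had a value. Dcstamp, needed for cell fusion, stood at -1.92 at 24 h and -3.34 at 3 d, and Atp6v0d2 at -4.37 and -3.95. Acp5, the tartrate-resistant acid phosphatase, stood at 3.82 and 2.95, and Ctsk, the matrix-degrading cathepsin K, at -0.24 and -0.14. By the DESeq2 calls of the authors' deposited table, 2 of 7 tested markers were higher and 3 lower at 24 h, and 3 were higher and 2 lower at 3 d, near the shares of all tested genes (34.2% and 34.4% at 24 h, 29.7% and 25.8% at 3 d).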
